A study of Paralichthys olivaceus with 6 samples.

Results

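Neurotransmitter receptor genes were followed in tissue recorded as hindbrain, from the flatfish Paralichthys olivaceus, the olive flounder. They were chosen by name, as all genes whose symbol in the count tables starts with the stem of a receptor family for GABA, glycine, glutamate, acetylcholine, serotonin, dopamine, noradrenaline or histamine. The rule found 45 of 24395 genes, spread over 16 receptor classes. No measured value entered the rule, though it was chosen with earlier results of these data known. A further 73 receptor genes carried only a LOC number in the tables and were recognised by their RefSeq symbol, so the 45 are a part of the 118 receptor genes counted. These 73 are called added loci here and are used only to complete the receptor classes.

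The series compared fish selected as bold with fish selected as shy, with 3 libraries of RNA-seq read counts for each. The fish had a body mass of 101.06 ± 6.39 g (SD) and were kept at 18 °C with 12 h of light and 12 h of darkness. No genotype, sex, age or drug treatment is given in the labels. The region markers given below do not by themselves identify the tissue as hindbrain. The library titles and the personality entry in the sample characteristics contradict each other for all 6 libraries, so the text speaks of titled bold and titled shy libraries. Every direction below turns around if the other entry is right. The protocol speaks of RNA from 6 individuals without saying how they relate to the libraries, so p-values measure the spread between libraries only.

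Fast inhibition in the vertebrate brain runs through GABA-A and glycine receptors, which are chloride channels built from 5 subunits each. Fast excitation runs through AMPA, kainate and NMDA receptors, which are cation channels of 4 subunits activated by glutamate. Nicotinic receptors are cation channels opened by acetylcholine. GABA-B, metabotropic glutamate, muscarinic, dopamine, adrenergic and histamine receptors act through G proteins, and so do nearly all serotonin receptors. Because channel properties follow from the subunits assembled, the mix of subunit transcripts is often used to describe a brain region.

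Library totals lay between 18081694 and 22805563 counts, and a count of 3 corresponded to between 0.132 and 0.174 CPM (counts per 1000000 after TMM scaling). Averaged over the 6 libraries, 21 of the 45 receptor genes reached 10 CPM, and 10 of these reached 100 CPM. Another 17 lay between 1 and 10 CPM and 7 below 1 CPM. Enough reads for testing were present for 40. The 5 others, gabrr3, chrna1, chrnb1, chrna9 and hrh1, had between 0 and 9 reads per library. CPM counts reads and not molecules, and transcript lengths were not used here. The order of genes given below is therefore an order of reads, in which long transcripts take more. In bulk tissue, fewer cells of a type and less RNA per cell cannot be told apart.

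**Figure D1:**
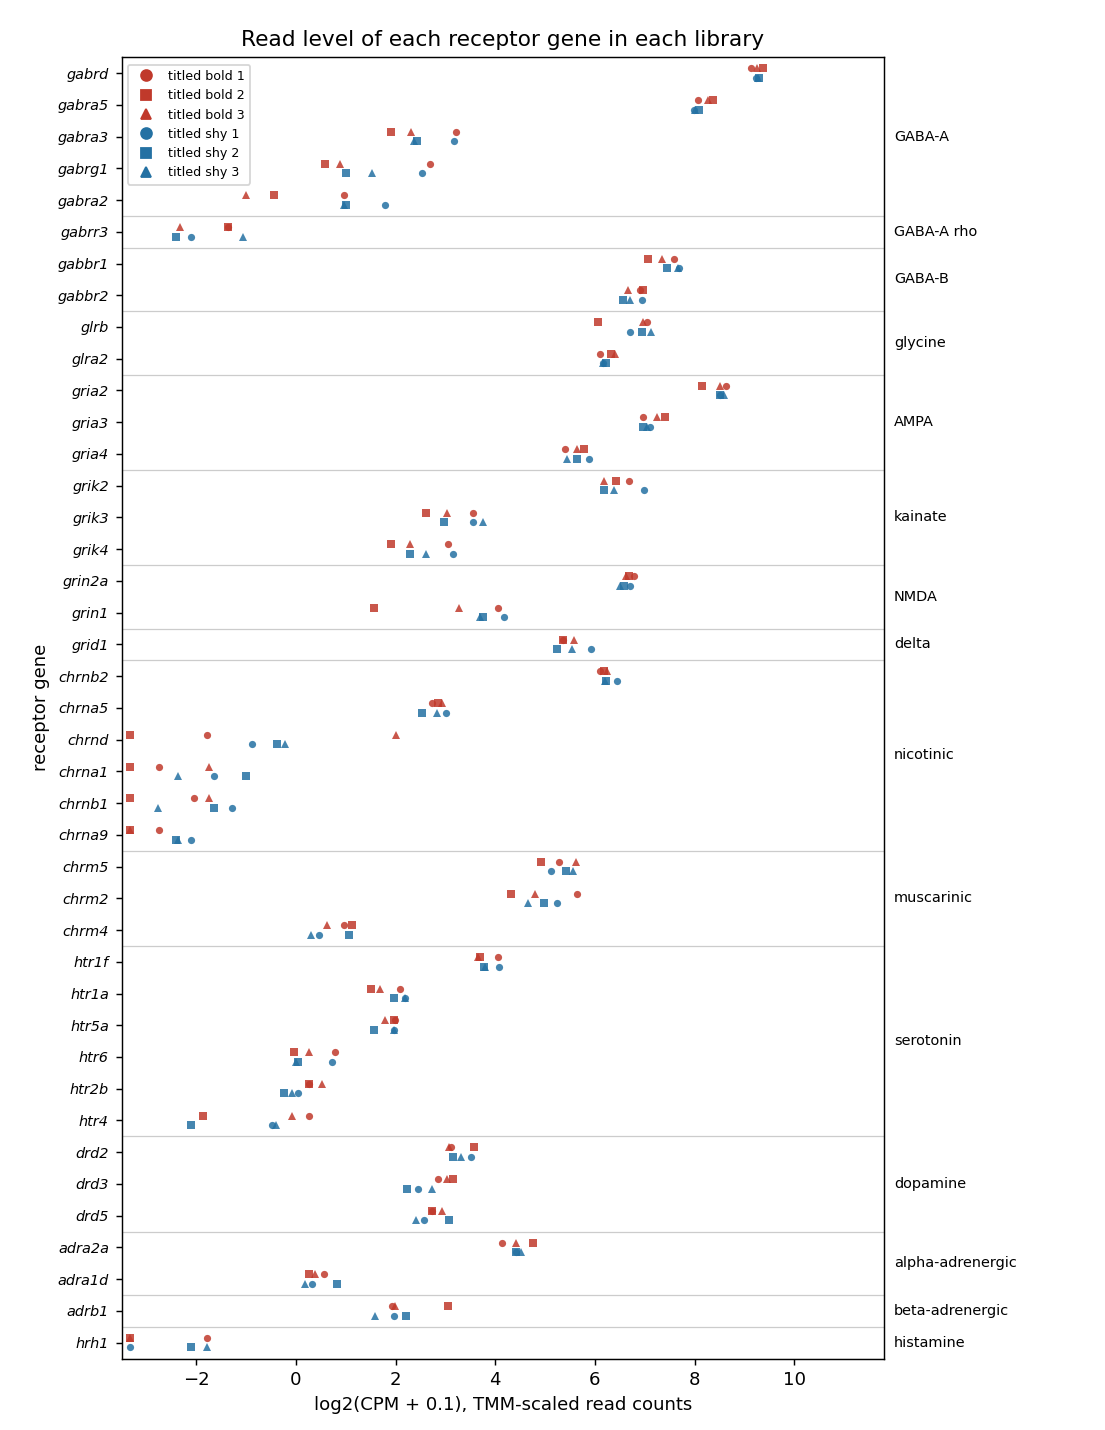
Level of receptor genes in each library as log2(CPM + 0.1), with genes grouped by receptor class and ordered by mean; red points are titled bold libraries and blue points titled shy libraries, and the shape gives the replicate number. The gene gabrd lies highest, between 563 and 659.9 CPM, and the 2 groups overlap for nearly all genes.

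Among GABA-A genes, the most reads fell on gabrd, which encodes the delta subunit of receptors outside synapses that carry tonic inhibition. It had 563, 659.9 and 612 CPM in libraries titled bold 1 to 3, against 598, 627 and 616 CPM in libraries titled shy 1 to 3. The titled shy libraries lay within the range of the titled bold ones, and the coefficient of variation over all 6 libraries, 5.27%, was the lowest of the 40 tested receptor genes. The class also held the added loci gabrb2a and gabra6b, at 475 ± 65.8 and 381 ± 30.6 CPM (SD, 6 libraries). Over the whole class, gabrd took 27.7% of the reads, between 26.3% and 28.4% in single libraries. The alpha-6 and delta subunits are known to be co-assembled in cerebellar granule cells of mammals.

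The alpha-5 subunit gene gabra5 had 267, 331 and 306 CPM in libraries titled bold 1 to 3, against 254, 273 and 258 CPM in libraries titled shy 1 to 3. Only titled bold 1 lay within the titled shy range. In each of the 6 libraries gabrd had more reads than gabrb2a, gabrb2a more than gabra6b, and gabra6b more than gabra5.

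The genes gabra3, gabrg1 and gabra2 had far fewer reads than gabrd or gabra5 and varied more between libraries. The alpha-3 gene gabra3 averaged 6.14 ± 2.30 CPM and the gamma-1 gene gabrg1 3.30 ± 2.14 CPM (SD, 6 libraries). The alpha-2 gene gabra2 had 1.86, 0.639 and 0.399 CPM in libraries titled bold 1 to 3, against 3.35, 1.90 and 1.85 CPM in libraries titled shy 1 to 3. Titled bold 2 and titled bold 3 lay below every other library, while titled bold 1 lay beside titled shy 3. The rho subunit gene gabrr3, best known from the retina, had between 2 and 8 reads per library.

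Both GABA-B genes, whose products must pair to form a working receptor, were well represented. The gene gabbr1, for the GABA-binding subunit, had 192, 133 and 163 CPM in libraries titled bold 1 to 3, against 204, 174 and 204 CPM in libraries titled shy 1 to 3. The gene gabbr2, for the subunit that couples to G proteins, had 119, 124 and 101 CPM against 123, 94.4 and 104 CPM in the same order. Reads of gabbr1 exceeded those of gabbr2 in 6 of 6 libraries, with a share of 61.5 ± 5.10% of the class (SD), and the lowest share, 51.7%, was in titled bold 2.

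Glycine receptor reads came almost wholly from 2 genes. The gene glrb encodes the beta subunit that binds the scaffold gephyrin, and it had 133, 67.1 and 124 CPM in libraries titled bold 1 to 3, against 104, 123 and 139 CPM in libraries titled shy 1 to 3. Titled bold 2 was the lowest of the 6. The alpha-2 gene glra2, whose product is the main alpha subunit of the immature brain in rodents, was steady, at 68.5, 80.4 and 83.9 CPM against 72.0, 74.7 and 71.6 CPM. Added loci for the other alpha subunits held 2.85% (glra4a), 0.463% (glra1) and 0.246% (glra3) of the class reads. In rodents, alpha-1 replaces alpha-2 as animals mature. Here glra1 stayed below glra2 in reads, with mean shares of 0.325% in titled bold and 0.602% in titled shy libraries. The glra1 values rest on between 8 and 32 reads per library, and no stages of maturity were compared.

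Among AMPA genes, gria2 took the most reads. Its subunit, in its edited form, makes AMPA channels impermeable to calcium. It had 393, 282 and 364 CPM in libraries titled bold 1 to 3, against 366, 362 and 383 CPM in libraries titled shy 1 to 3, and 42.3 ± 4.24% of the class reads (SD, 6 libraries). The gene gria3 had 125, 169.6 and 151 CPM against 137, 125 and 132 CPM, and gria4, enriched in hindbrain circuits that need fast currents in mammals, 41.9, 55.1 and 49.7 CPM against 58.5, 49.4 and 43.3 CPM. Titled bold 2 was the lowest library for gria2 and the highest for gria3, and the groups overlapped for all 3 genes.

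For NMDA receptors, the rule found grin2a and grin1. The gene grin2a encodes a glutamate-binding subunit typical of mature synapses, and its 109.5, 103 and 97.9 CPM in libraries titled bold 1 to 3 stood against 103, 95.9 and 90.9 CPM in libraries titled shy 1 to 3. The gene grin1 encodes the glycine-binding subunit that every NMDA receptor needs, and it had 16.5, 2.85 and 9.57 CPM against 18.0, 13.4 and 12.8 CPM. Titled bold 2 had 49 reads of grin1, against between 192 and 408 in each other library. The added locus grin1a, a duplicate of grin1, carried 318 ± 86.1 CPM and 44.7% of the class reads, so the obligatory subunit was mostly read from that copy. Reads of another added locus, grin2bb, exceeded those of grin2a in 5 of 6 libraries. It averaged 137 ± 39.6 CPM (SD, 6 libraries), or 19.2% of the class reads. The exception was titled bold 2, where grin2bb had 61.2 CPM against 103 CPM for grin2a.

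Kainate receptor reads were shared by the member grik2, at 90.5 ± 20.6 CPM, and the added locus grik5, at 82.3 ± 8.99 CPM (SD, 6 libraries). These encode a pore-forming subunit and a high-affinity partner, and grik2 was above grik5 in 3 of 6 libraries. The genes grik3 and grik4 averaged 9.72 ± 2.84 and 6.03 ± 2.05 CPM. The delta receptor gene grid1 averaged 45.6 ± 8.08 CPM.

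Metabotropic glutamate receptors set the strength of synapses through G proteins, and 12 added loci belonged to this class. Of these, grm5a, for a receptor coupled to phospholipase C, had 516 ± 71.1 CPM, and grm2b, for a receptor that inhibits cAMP production, had 289 ± 34.8 CPM (SD, 6 libraries).

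**Figure D2:**
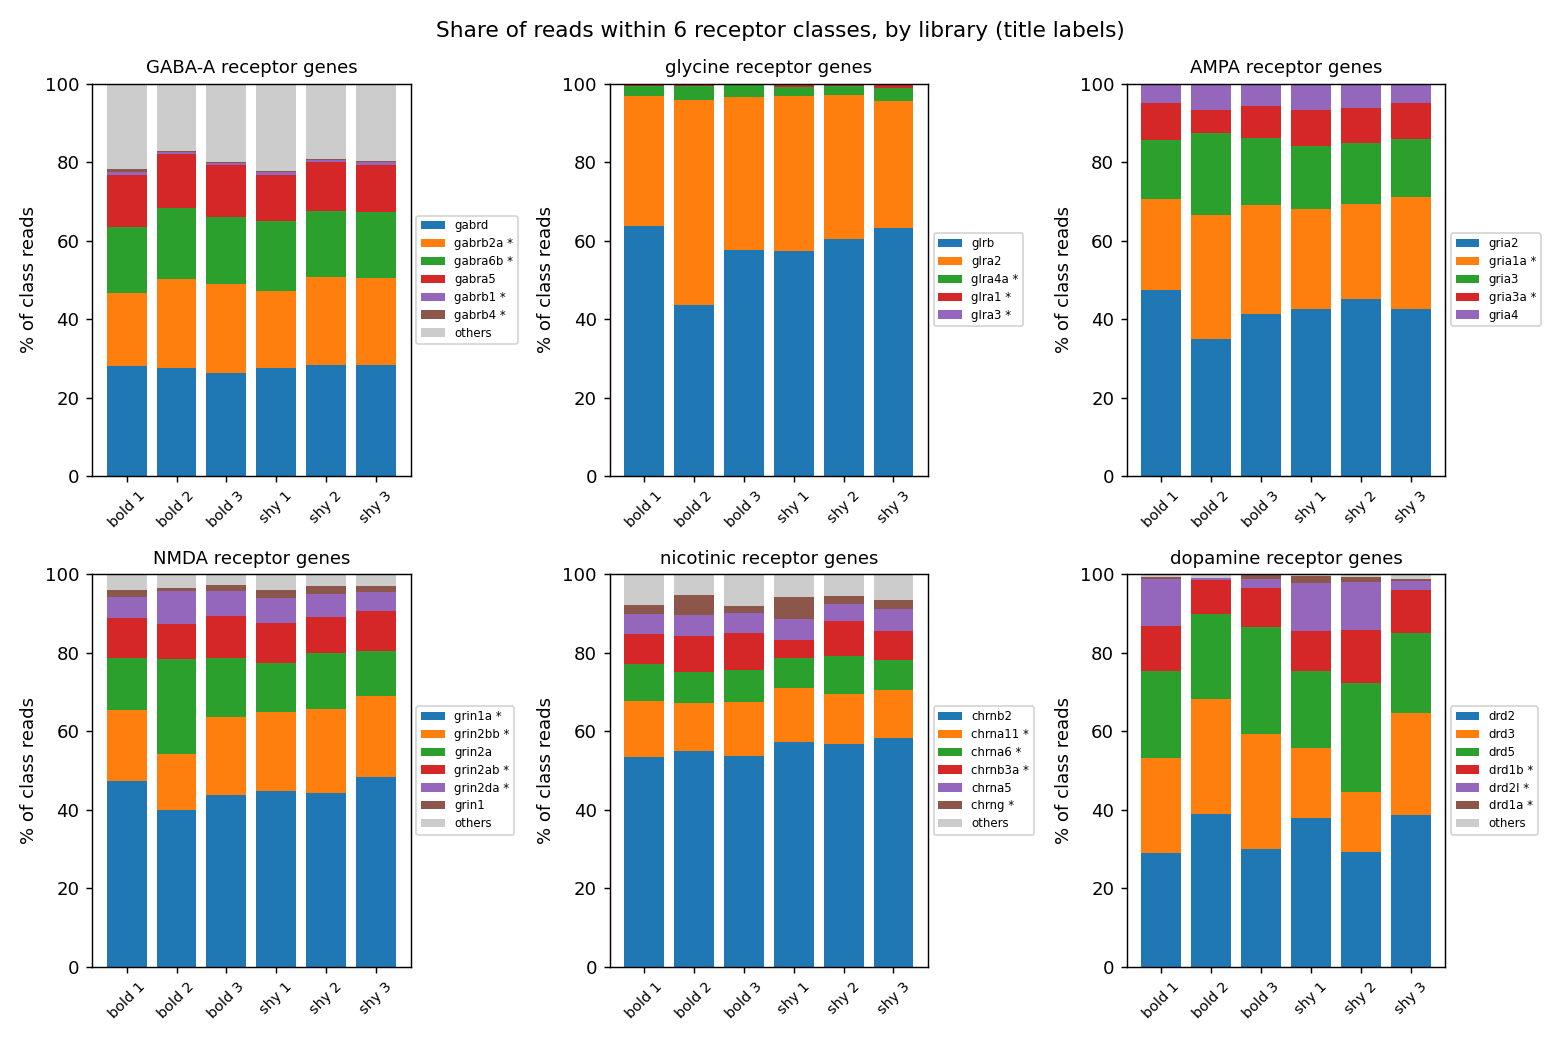
Share of each gene in the reads of its receptor class, in percent, for 6 classes and each library by title; an asterisk marks added loci, and grey stands for the remaining genes. In every library gabrd took between 26.3% and 28.4% of GABA-A reads, while in titled bold 2 glrb and gria2 took their lowest shares, 43.6% and 34.9%.

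Nicotinic reads were led by chrnb2, which encodes the beta-2 subunit of the most common brain nicotinic receptor of mammals. It had 69.0, 72.8 and 75.8 CPM in libraries titled bold 1 to 3, against 86.4, 74.9 and 73.3 CPM in libraries titled shy 1 to 3, and 55.8 ± 2.00% of the class reads (SD, 6 libraries). The groups overlapped. The accessory subunit gene chrna5 averaged 6.94 ± 0.793 CPM.

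The muscle-type subunit genes chrna1 and chrnb1 averaged 0.160 and 0.153 CPM, near the level of 3 counts, and the hair-cell gene chrna9 had between 0 and 3 reads per library. An added locus for another muscle-type subunit averaged 4.33 ± 2.61 CPM (SD, 6 libraries), or 3.15% of the class reads. The muscle delta subunit gene chrnd, singled out after its values were seen, had 4, 0 and 79 reads in libraries titled bold 1 to 3, against 10, 15 and 16 reads in libraries titled shy 1 to 3. Titled bold 3 stood far above the rest. The summed level of 7 skeletal muscle markers was 1.15 CPM in titled bold 3 and between 1.14 and 4.42 CPM in the other libraries, and all 7 averaged below 1 CPM.

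Muscarinic reads came mainly from chrm5 and chrm2, for receptors that couple to phospholipase C and to inhibition of cAMP production. The gene chrm5 averaged 39.4 ± 9.52 CPM in titled bold and 41.3 ± 6.27 CPM in titled shy libraries (SD, n = 3 each). The gene chrm2 had 50.0, 19.9 and 27.8 CPM in libraries titled bold 1 to 3, against 37.8, 31.5 and 25.2 CPM in libraries titled shy 1 to 3. Both the highest and the lowest value of chrm2 were in titled bold libraries. The gene chrm4, for another receptor that inhibits cAMP production, averaged 1.63 ± 0.399 CPM over the 6 libraries.

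Each class of amine receptor had fewer reads than the GABA-A, AMPA or NMDA class. Among 6 serotonin members, htr1f, for an inhibitory receptor, led with 14.3 ± 1.84 CPM (SD, 6 libraries), followed by the inhibitory receptor genes htr1a at 3.79 ± 0.714 CPM and htr5a at 3.60 ± 0.408 CPM. The cAMP-raising receptor gene htr6 averaged 1.16 ± 0.338 CPM and htr4 0.589 ± 0.378 CPM. The gene htr4 rests on between 3 and 23 reads per library. Members held 35.8% of the serotonin receptor reads. Among added loci, the highest share was 20.6%, against 21.0% for htr1f, and htr7c had 12.6%, against 5.54% for htr1a.

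The dopamine receptor genes drd2 and drd3, of the inhibitory D2-like family, averaged 9.73 ± 1.48 and 6.74 ± 1.60 CPM, and the D1-like gene drd5 6.64 ± 1.13 CPM. The noradrenaline receptor gene adra2a, for an inhibitory receptor that noradrenergic neurons also carry themselves, averaged 21.8 ± 3.07 CPM, and adra1d 1.26 ± 0.237 CPM. Members held 29.5% of the alpha-adrenergic reads. An added locus of this class had 33.8%, against 27.8% for adra2a, and exceeded it in 5 of 6 libraries. The beta-1 gene adrb1 had 3.73, 8.13 and 3.84 CPM in libraries titled bold 1 to 3, against 3.83, 4.55 and 2.89 CPM in libraries titled shy 1 to 3, with titled bold 2 above all others. The histamine receptor gene hrh1 had between 0 and 4 reads per library.

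No receptor gene differed between titled bold and titled shy libraries at a Benjamini-Hochberg adjusted p under 0.05 in edgeR's quasi-likelihood test, fitted and adjusted over 19755 genes. The count was 0 of 40 tested members, beside 0.0% of all tested genes. DESeq2 also called 0 of the 40, beside 0.0557% of all tested genes, and limma-voom 0, beside 0.0%. At an unadjusted p under 0.05, 1 of 40 members was found, beside 3.49% of all tested genes, and it was higher in titled bold, beside 1.74%. The median log2 fold (titled bold over titled shy) was 0.00 over the 40 members, with 20 above 0 and 20 below, and -0.01 over all tested genes. In simulated counts of this design, with 200 changed genes per set drawn from all tested genes, 51.4% of genes changed 2-fold were recovered. Differences of that size can thus be missed. Deviations shared by many genes of a library were not simulated, so this share need not hold for the real counts.

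The member with the smallest p was drd3, whose product is a D2-like dopamine receptor. It had 7.07, 8.83 and 8.03 CPM in libraries titled bold 1 to 3, against 5.33, 4.60 and 6.58 CPM in libraries titled shy 1 to 3. All titled bold libraries lay above all titled shy libraries, with a log2 fold of 0.54 ± 0.23 (SE), an unadjusted edgeR p of 0.0451 and an adjusted p of 0.955. The unadjusted p of drd3 was over 0.05 without titled bold 2 (0.100), titled bold 3 (0.0974), titled shy 1 (0.102) or titled shy 2 (0.132), and under library totals (0.0552) or the replicate block (0.0542), all from edgeR across all genes. Its log2 fold without 1 library lay between 0.42 and 0.70.

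The groups also did not overlap for htr2b, the gene of a serotonin receptor coupled to phospholipase C. It had 1.10, 1.10 and 1.35 CPM in libraries titled bold 1 to 3, against 0.925, 0.751 and 0.852 CPM in libraries titled shy 1 to 3, from between 17 and 27 reads per library. Its log2 fold was 0.49 ± 0.39, with an edgeR adjusted p of 0.955. Groups without overlap were thus found for 2 of 40 members, beside 9.53% of all tested genes. Both were higher in titled bold, beside 4.53%.

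Other members with small p-values were gabra2, gabra5 and gabbr1. Their log2 folds were -1.27 ± 0.59, 0.20 ± 0.11 and -0.25 ± 0.14 (SE), and all had an edgeR adjusted p of 0.955. Also among the 10 members with the smallest p were gria3, adrb1, htr1a and grin1, at 0.17 ± 0.13, 0.47 ± 0.37, -0.34 ± 0.28 and -0.60 ± 0.50. The groups overlapped for each of these genes. With 1 library left out, the log2 fold of adrb1 lay between 0.01 and 0.69. Without titled bold 1, 7 members had an unadjusted edgeR p under 0.05, beside 12.0% of all tested genes. Of these 7, 4 were higher in titled bold, drd3, gabra5 and gria3 among them, beside 5.42%. The 3 lower in titled bold were gabra2, gabbr1 and grin1, beside 6.54%, and none of the 7 passed after adjustment. The count was 0 without titled bold 2, titled shy 1 or titled shy 2, beside 2.8%, 2.69% and 3.11%, and 1 without titled bold 3 or titled shy 3, beside 2.71% and 2.69%. It was 4 without both libraries numbered 1 and 0 without both numbered 2, settings chosen after seeing the data, beside 6.88% and 3.15%. It was 0 with library totals, beside 3.35%, 2 without a filter, beside 3.28%, 2 with DESeq2, beside 3.86%, and 2 with limma-voom, beside 3.63%. With a replicate block it was 2, beside 5.87%, both lower in titled bold, beside 3.58%.

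The groups of drd3 and htr2b also did not overlap with RLE, upper-quartile or library-total scaling. With library totals, 4 members had groups that did not overlap, gabra5 among them, beside 9.3% of all tested genes. Leaving out a library can only add genes to this count. Without titled bold 1 there were 13, beside 31.3%, and without titled shy 2 there were 8, beside 19.6%. There were 4 each without titled bold 2, titled bold 3, titled shy 1 and titled shy 3, beside 16.5%, 16.7%, 17.2% and 17.7%.

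**Figure D3:**
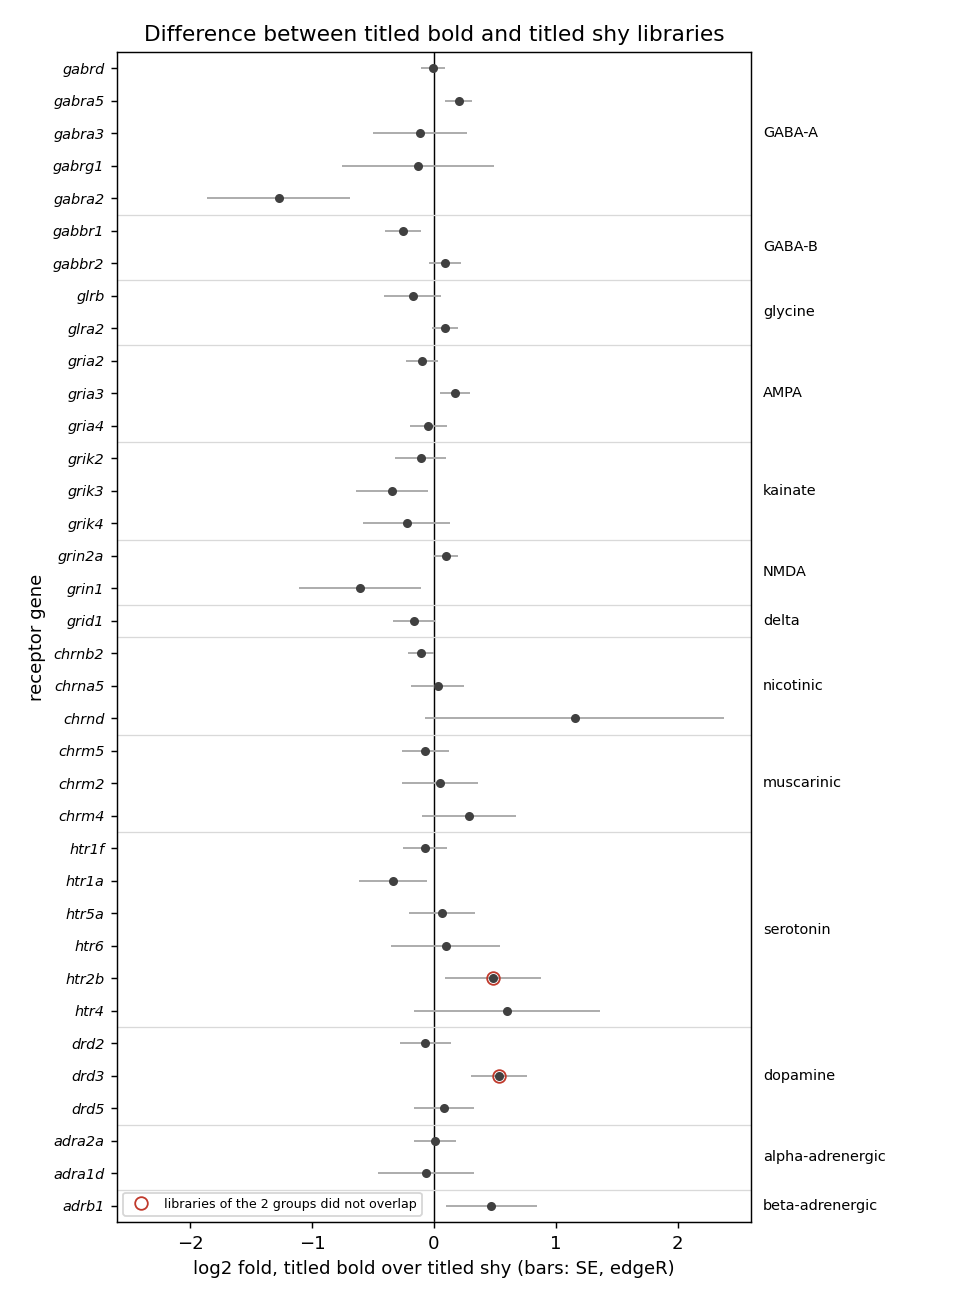
Log2 fold of titled bold over titled shy for tested receptor genes, with bars of 1 SE from edgeR, grouped by class. Most genes lie within 0.5 of 0, the circled genes drd3 (0.54) and htr2b (0.49) are those whose groups did not overlap, and the widest bar belongs to chrnd.

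Per class, the members with the smallest p in the classes not named so far were chrnb2, glra2, grik3, grid1, chrm4 and adra1d. Their log2 folds were -0.11 ± 0.11, 0.09 ± 0.11, -0.34 ± 0.29, -0.16 ± 0.17, 0.29 ± 0.39 and -0.07 ± 0.39 (SE). All had overlapping groups and edgeR adjusted p-values between 0.955 and 0.988. The log2 folds of grid1, chrnb2 and adra1d turned sign in some fits that left libraries out. For chrnd the log2 fold was 1.15 ± 1.23 with all libraries and -2.54 without titled bold 3.

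Summed over a class, added loci included, GABA-A reads came to 2246 ± 207 CPM in titled bold and 2181 ± 27.6 CPM in titled shy libraries (SD, n = 3 each). AMPA reads came to 840.2 ± 37.4 and 852 ± 47.5 CPM in titled bold and titled shy, and NMDA reads to 638 ± 205 and 769.5 ± 80.5 CPM. Glycine receptor reads were 193 ± 33.6 and 202 ± 19.0 CPM, nicotinic reads 134 ± 6.36 and 136 ± 13.0 CPM, and dopamine receptor reads 28.9 ± 1.34 and 28.4 ± 2.50 CPM in the same order of groups. In each of these 6 classes, the difference between the group means was smaller than the larger SD.

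Single libraries stood apart for many receptor genes. Relative to its own mean over the 6 libraries, a member lay at least 0.5 lower on the log2 scale in titled bold 2 in 11 of 40 cases, or 27.5%, beside 16.0% of all tested genes. In each other library at most 2 members did so. Among the 11 were grin1, chrnd, gabrg1, gabra2, glrb, chrm2, htr4, gabra3, grik3 and grik4, which span channels for 4 transmitters and receptors coupled to G proteins. Titled bold 2 was the highest library for 10 members, or 25.0%, near the 25.4% of all tested genes, with adrb1, drd3 and adra2a furthest above their means. Titled shy 2 was the lowest library for 11 members, drd3 and htr2b among them, or 27.5%, beside 11.6% of all tested genes. Titled bold 2 was the lowest for 14, or 35.0%, beside 29.3%.

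Titled bold 1 and titled shy 1 were the highest libraries for 9 and 12 members, or 22.5% and 30.0%, beside 16.5% and 15.8% of all tested genes. In gabrg1 these libraries had 6.31 and 5.68 CPM, against between 1.39 and 2.79 CPM in the other 4. In gabra3 they had 9.18 and 8.86 CPM, against between 3.66 and 5.26 CPM. The same libraries were thus high in both genes, one from each group by title. The coefficient of variation over libraries had a median of 17.9% over the 40 members and 17.0% over all tested genes, and ran up to 147% for chrnd.

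**Figure D4:**
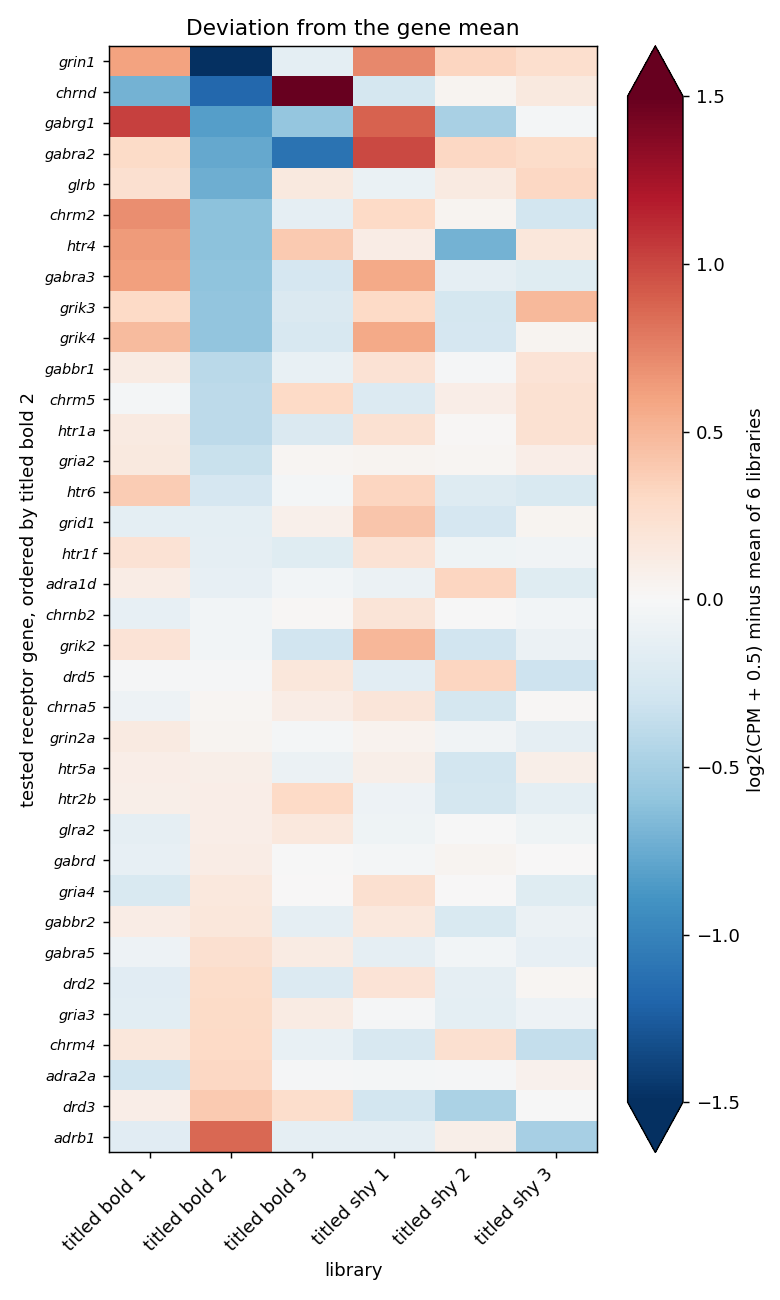
Deviation of tested receptor genes from their means over 6 libraries, as log2(CPM + 0.5), with genes ordered by titled bold 2; red is above and blue below the mean, and values beyond 1.5 share the end colours. Titled bold 2 holds the deepest blue, with grin1 at -1.74, and titled bold 1 and titled shy 1 share red in gabrg1, gabra3 and grik4.

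Markers of cell types and brain regions moved with the libraries too. The summed level of 8 neuron markers was 8817 CPM in titled bold 2 and between 6086 and 6569 CPM in the other libraries, and 3 of the 8, snap25, stmn2 and stmn2a, were highest there, at 5700.1, 1991 and 813 CPM. The neuron marker elavl3 was lowest in titled bold 2, at 159.8 CPM against between 189 and 223 CPM in the others. The summed level of 8 oligodendrocyte markers was 4102 CPM in titled bold 2 and between 2132 and 2563 CPM in the other libraries, with mbpa at 2393 CPM there, while mpz and cnp were lowest there, at 47.6 and 114 CPM. The sum of 6 markers of astrocytes and radial glia was lowest in titled bold 2, at 4096 CPM against between 4246 and 5910.0 CPM, with slc1a2 at 99.9 CPM against between 335 and 593 CPM. Titled bold 2 was also lowest for s100b, at 1337 CPM, while gfap, fabp7a, glula and aqp4 each had a lower value in another library. These single markers were named after their values were seen. The sum of 10 hypothalamus and forebrain markers lay between 136 and 146 CPM in titled bold and between 159.8 and 180.2 CPM in titled shy libraries, without overlap. Of these 10, 7 had a lower and 3 a higher mean in titled bold, edgeR called 0 of them, with 1 at an unadjusted p below 0.05. No other marker set had sums without overlap between the groups, and single genes lacked overlap in 9.53% of all tested genes. The forebrain gene fezf2 had 2.25, 0.348 and 0.399 CPM in libraries titled bold 1 to 3, against 4.01, 2.30 and 0.426 CPM in libraries titled shy 1 to 3, and was singled out after its values were seen. It was below 0.5 CPM in titled bold 2, titled bold 3 and titled shy 3, and gabra2 was lowest in the first 2 of these. Of 10 hindbrain markers, hoxb2, hoxb4 and phox2a had no read, 8 averaged below 1 CPM, and their sum lay between 21.7 and 32.5 CPM in titled bold and between 24.7 and 27.8 CPM in titled shy libraries. In every library this sum was below that of the hypothalamus and forebrain markers, so these markers alone do not identify the tissue as hindbrain. For cerebellar granule cells the summed level of 9 markers lay between 594 and 646 CPM in titled bold and between 536 and 612 CPM in titled shy libraries, and for Purkinje cells that of 7 markers between 3609 and 4262 CPM and between 3294 and 3677 CPM. The part of these markers in the receptor values was not tested.

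Several receptor genes exist as duplicates, as is common in teleosts, and the copies differed in how they varied. In 6 pairs that held a member and in which both copies were tested, the copy with more reads was the same in all 6 libraries. The gene grin2a had between 1.10 and 1.52 times the reads of its duplicate grin2ab in 5 libraries and 2.76 times in titled bold 2. For gria3 over gria3a the ratio was 3.67 in titled bold 2 and between 1.59 and 2.08 in the others. In these pairs the summed reads varied less for gria3, between 197 and 224 CPM, than for grin2a, between 140.3 and 195 CPM.

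For grin1a over grin1, the ratio was 59.7 in titled bold 2 and between 20.5 and 30.6 elsewhere. Both copies of this gene were lowest in titled bold 2, where grin1a had 169.8 CPM against between 287 and 394 CPM in the other libraries. How the submitters' counting split reads between near-identical copies is not given in the sources used here, so values of single copies carry that uncertainty.

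**Figure D5:**
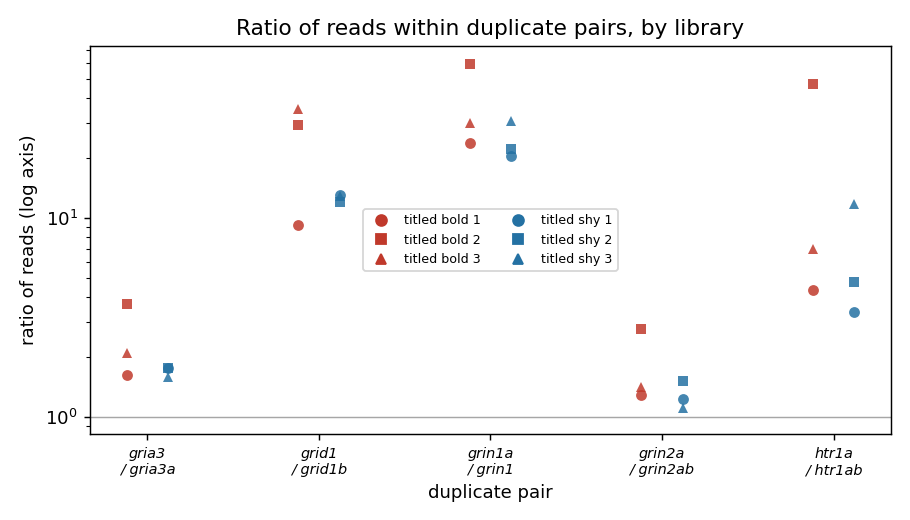
Ratio of reads of the more to the less abundant copy in duplicate pairs, on a log axis, with red for titled bold and blue for titled shy libraries and shapes for replicate numbers. Titled bold 2 holds the highest ratio in 4 pairs, at 3.67 for gria3, 59.7 for grin1, 2.76 for grin2a and 47.0 for htr1a. The htr1a ratio in titled bold 2 rests on 47 reads of htr1a over 1 read of its duplicate.

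Some receptor genes lie side by side in the genome, as GABA-A genes do in other vertebrates. In the RefSeq annotation of the assembly ASM2471397v2, used for gene order only, 97 of the 118 receptor genes could be placed, 25 members among them. They formed 7 groups of neighbours with at most 1 other protein-coding gene between them. The pair gabrb4 and gabra3 had 7.09 and 6.14 CPM and varied by 40.0% and 37.4%. Another group held chrna5 with chrna3 and chrnb4, which encode ganglion-type nicotinic subunits in mammals and had 6.94, 0.600 and 0.523 CPM and varied by 11.4%, 20.4% and 48.2%.

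Genes that supply transmitters, or bind and position their receptors, were also not called. Of 34 tested genes for synthesis, vesicle loading, uptake and breakdown of transmitters, edgeR called 0. At an unadjusted edgeR p below 0.05 there were 2, beside 3.49% of all tested genes, and both were higher in titled bold, beside 1.74%. These were the serotonin transporter gene slc6a4, at 9.37 ± 0.479 against 5.91 ± 0.265 CPM, and dbh, which makes noradrenaline from dopamine, at 13.6 ± 1.90 against 9.23 ± 2.66 CPM (titled bold against titled shy, SD, n = 3 each). Another tested serotonin transporter locus had a lower mean in titled bold, at 1.64 ± 1.90 against 3.95 ± 3.72 CPM, with overlapping groups. It was singled out after its values were seen. Over the 34 genes, 15 log2 folds lay above 0 and 19 below. Of 63 tested genes for scaffolds, auxiliary subunits and other partners, edgeR called 0, and 1 reached an unadjusted p below 0.05. It was cbln4, a secreted synapse organiser, at 43.7, 15.7 and 17.3 CPM in libraries titled bold 1 to 3, against 14.9, 11.9 and 10.4 CPM in libraries titled shy 1 to 3. Next came kctd12b, for an auxiliary subunit of GABA-B receptors, at 75.3 ± 8.22 against 63.3 ± 1.80 CPM. Without titled bold 1 these counts, 2 of 34 and 1 of 63 with all libraries, were 7 and 10, beside 12.0% of all tested genes. With the replicate block they were 5 and 8, beside 5.87%. The median log2 folds of these lists were -0.03 and 0.03, beside -0.01 over all tested genes.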

How the data were processed

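Per the labels' protocols, mRNA libraries that keep strand were read from both ends over 100 bp. Each library came as a deposited table of raw counts per gene. Tools listed in the submitters' processing notes are HTSeq 0.11.1, TopHat2 2.0.11 and Trimmomatic 0.30. The sources used here do not give the genome build, annotation or strand setting. Groups follow the library titles. Genes were kept by edgeR's filterByExpr, TMM-scaled and compared by the two-sided quasi-likelihood test (robust) over 19755 genes, with Benjamini-Hochberg adjustment over all of them. SEs are the log2 fold divided by the square root of F. LOC numbers were named through RefSeq (assembly ASM2471397v2), and 2 loci of receptor-binding proteins that match the name pattern were left out. A planned level per kilobase was not run, since transcript lengths were not used here.

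The members and lists were chosen with earlier results of these data known. Named genes are the 3 members per class with most reads, the member per class with the smallest p and the 10 smallest p-values among all members, with others marked as chosen after their values were seen or given by their level alone. Libraries of a group all differed beyond sampling noise, with chi-square values per gene from 17.8 upward. Replicate numbers did not pair the libraries by the criterion used, a correlation of deviations over 0.1 for every number. The alternatives were other scalings, filters and dispersion estimates, DESeq2, limma-voom, a replicate block and leaving libraries out. The edgeR step was tested on simulated data with 200 changed genes per set. Versions were DESeq2 1.42.0, limma 3.58.1 and edgeR 4.0.16 under R 4.3.3, and matplotlib 3.10.9 under Python 3.11.15. Some receptor genes are counted in the totals but not reported here by name, in text or figures.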

Additional observations from a re-analysis of the deposited data

How the results depend on the processing

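No setting called a receptor gene, while over all genes DESeq2 called 11. With all libraries, 1 receptor gene had an unadjusted edgeR p under 0.05, beside 3.49% of all tested genes. The number was 0 with library totals, 2 without a filter, 2 with DESeq2 and 2 with limma-voom, beside 3.35%, 3.28%, 3.86% and 3.63%. Leaving out 1 library gave between 0 and 7, beside between 2.69% and 12.0%, and the 7 came without titled bold 1, beside 12.0%. Added after the data were seen, it was 4 without both libraries numbered 1 and 0 without both numbered 2, beside 6.88% and 3.15%. Receptor genes whose groups do not overlap numbered 4 with library totals, beside 9.3% of all tested genes. With 1 library left out they numbered between 4 and 13, beside between 16.5% and 31.3%. The 13 came without titled bold 1, beside 31.3%. The median log2 fold ranged from -0.036 to 0.12 with 1 library left out and was 0.10 without both numbered 1.

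Signs turned for 4 of 17 genes. The log2 fold of adra1d ranged from -0.18 to 0.17 with 1 library left out and was 0.24 without both numbered 2. That of grid1 ranged from -0.31 to 0.041 and was 0.088 without both numbered 1, and that of chrnb2 was 0.024 there. That of chrnd ranged from -2.54 to 1.73, was -1.01 with limma-voom and -0.15 with the replicate block. The causes were not tested. With the replicate block, 2 receptor genes had an unadjusted edgeR p under 0.05, beside 5.87% of all tested genes. These were gabbr1 and gabra2, both lower in titled bold, beside 3.58%. Same-numbered libraries deviated together with correlations of 0.333, 0.162 and 0.0952, and each library correlated best with its own number, a hint from the data and not from the design. The planned comparison of CPM per kilobase with CPM was not run. Test settings that do not alter CPM were not applied to the overlap of groups. Genes under 10 CPM rest on few reads, which limits what differences can be seen in them.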

Other observations

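The 73 added loci entered no comparison of the report by themselves. Of 58 tested, edgeR called 0. At an unadjusted edgeR p below 0.05 there was 1, the serotonin receptor gene htr7c, beside 3.49% of all tested genes. It was higher in titled bold, beside 1.74%. The groups did not overlap for 6 of the 58 loci, beside 9.53% of all tested genes. Of these 6, 4 were higher and 2 lower in titled bold, beside 4.53% and 5.0%. The coefficient of variation of the 58 loci had a median of 24.7%, against 17.9% for the members. In titled bold 2, 12 of the 58 lay at least 0.5 below their own mean on the log2 scale, or 20.7%, beside 16.0% of all tested genes, and titled bold 2 was the lowest library for 21 of them, beside 29.3%.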
